A study of Mus musculus with 12 samples.

Results

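The response of wild-type mouse pancreas to cerulein was measured by RNA sequencing in 6 libraries, 3 from mice given cerulein and 3 from mice given saline. They were chosen by their labels and are 6 of the 12 libraries of the series, the other 6 being labelled Atf3-/-. All 6 mice were C57Bl6 animals of 2 to 4 months with the genotype given as control, and the labels name no engineered allele and no sex, litter or day. Each received 4 injections over 4 h, of saline or of 50 ug/kg cerulein, and whole pancreas was taken 4 h after the first injection. The series' design gives 3 animals per group, so the replicates are separate mice. Libraries carry the codes W1, K5 and R3 (saline) and O1, O3 and N3 (cerulein), and values by library are always given in that order.

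Cerulein is a peptide analogue of cholecystokinin, the gut hormone that makes the acinar cells of the pancreas release digestive enzymes. It binds a Gq-coupled receptor on the acinar cell, which raises cytosolic calcium. Repeated injections beyond the dose that gives maximal secretion are a standard way to induce mild acute pancreatitis in mice, with activation of enzyme precursors inside the cell, stress of the endoplasmic reticulum (ER), rearranged actin and a first wave of cytokines. Acinar cells make up most of the pancreas and devote most of their mRNA to secreted enzymes, so in bulk RNA fewer acinar cells and less enzyme mRNA per cell cannot be told apart.

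The 6 libraries held 18292997 to 25958479 counts, with 18270 to 20040 genes detected in each. On the first principal component, with 68.1% of the variance, saline libraries ranged from -69.9 to -62.1 and cerulein libraries from 52.9 to 75.9. N3 stood apart on the second, with 17.8% of the variance, at -68.1 against 18.7 for O1 and 39.8 for O3. Acinar markers carried the tissue label in all 6 libraries, at summed levels of 331000 to 375000 counts per 1e6 (CPM, on library sizes scaled by the TMM method) in saline and 236000 to 271000 CPM in cerulein, and no acinar marker was at 0. The TMM factors did not overlap between the groups, at 0.8494, 0.9229 and 0.9635 in saline and 1.112, 1.022 and 1.165 in cerulein. A gene with an unchanged share of counts therefore has a lower CPM in cerulein, and falls in CPM exceed falls in share.

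N3 carried the markers of fat and of lymphoid tissue. The 15 adipocyte markers summed to 402, 283 and 435 CPM in saline, to 97.7 and 91.2 CPM in O1 and O3, and to 1090 CPM in N3, where 13 of the 15 were at their highest. The adipocyte hormone gene Adipoq stood at 24.8, 5.24 and 19.5 CPM with saline and 0.0367, 0.144 and 64.4 CPM with cerulein. The 15 B lymphocyte markers summed to 337, 70.3 and 57.5 CPM in saline, to 41.7 and 9.27 CPM in O1 and O3, and to 718 CPM in N3, and all 15 were highest in N3. In O3, 4 adipocyte markers (Plin1 among them) and 7 B lymphocyte markers (Cd79a among them) were at 0. The cerulein group held both the highest and the lowest level of each list, with the 3 saline libraries between. Lymph node markers (154 CPM in N3 against at most 45.4 CPM elsewhere), macrophage markers (676 against at most 265 CPM) and neutrophil markers (141 against at most 33.5 CPM) were also highest in N3. Among named protein-coding genes with a mean of at least 1 CPM, 74 of 11222 were more than 5 times as high in N3 as in any other library, against 0 or 1 such genes for each of the other 5. The largest ratio was that of Tgm7, at 4.93 CPM in N3 and at most 0.192 CPM elsewhere. The 10 with the largest ratio also included the B cell genes Ms4a1, Fcrl5 and Bank1, the leukocyte integrin Itgal and the interferon-gamma-induced chemokine Cxcl9. The rest were Hspb7, Serpina3f, Tarm1 and Rab44. With edgeR's quasi-likelihood test on all 6 libraries, none of the 14 adipocyte or 14 B lymphocyte markers tested differed, with 1 and 0 at an unadjusted p under 0.05. DESeq2 called 1 adipocyte and 0 B lymphocyte markers, and limma-voom none of either. Without N3, 13 adipocyte and 11 B lymphocyte markers were lower in cerulein. Summed T lymphocyte markers were higher in every cerulein library (27 to 46.1 CPM) than in every saline library (5.04 to 11.1 CPM), and Tcf7 and Trbc1 made up most of the cerulein sums in O1 and O3. Without those 2 genes, left out after their values were seen, the other 13 summed to 2.36 to 6.82 CPM in saline, to 2.39 and 4.71 CPM in O1 and O3 and to 20.2 CPM in N3. Mesothelial markers summed to 27.6 to 51.3 CPM in saline and 112 to 135 CPM in cerulein, most of the latter from Krt19, which ducts also express. Without Krt19 the groups overlapped (17.4 to 41.5 CPM in saline and 7.59 to 36.4 CPM in cerulein). The part of these cells in other results was not tested, and list counts that moved by more than 1.5 times without any 1 library, to or from 3 or more genes, are given with that value. Where a list's median log2 fold change turned its sign or moved by over 0.3 without N3, that median is given too.

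**Figure D1:**
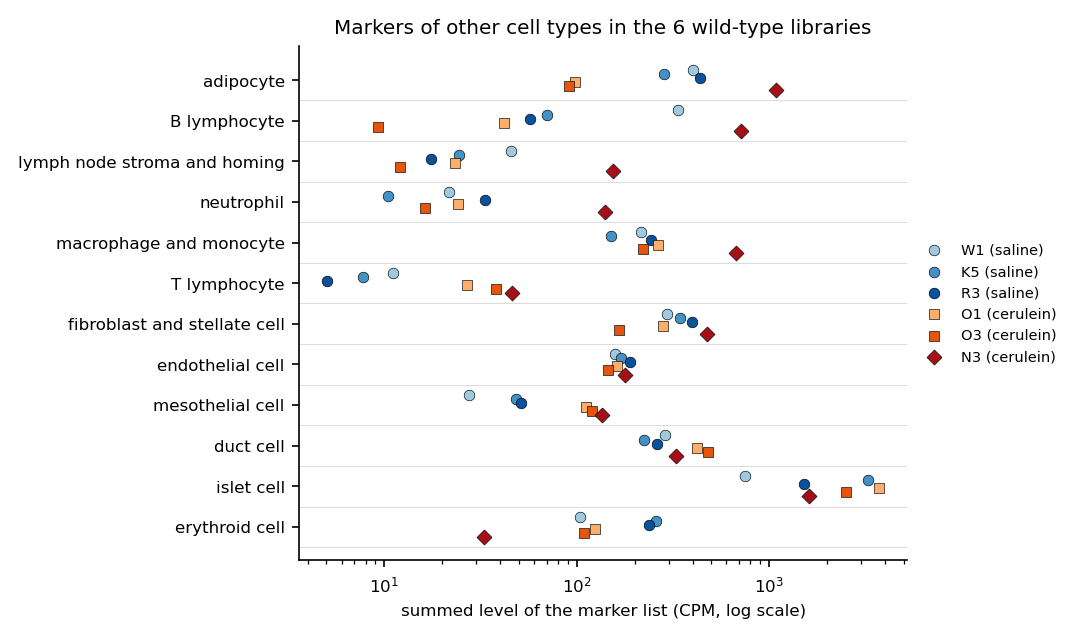
Summed level of the markers of 12 other cell types in each of the 6 wild-type libraries (CPM, log scale; circles, saline; squares, O1 and O3; diamonds, N3). N3 lies to the right of the other 5 libraries for adipocyte, B lymphocyte, lymph node, neutrophil and macrophage markers, and to their left for erythroid markers (33 CPM against 104 to 258 CPM).

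Cerulein changed the level of a large part of the transcriptome. With edgeR's quasi-likelihood test and Benjamini-Hochberg adjustment over all genes tested, at a threshold of 0.05 used throughout, 5632 of 13464 genes differed (41.8%). Of these 3286 rose (24.4% of genes tested) and 2346 fell (17.4%). Counts of list members given below are to be read beside these shares. Without N3, 3444 of 13710 genes rose (25.1%) and 3103 fell (22.6%). The median log2 fold change over all genes tested was 0.06 with N3 and -0.05 without it, and its median size irrespective of sign was between 0.56 and 0.72 in each range of level. A second test asked which changes exceeded 2-fold. It gave 1038 genes higher (7.71%) and 364 lower (2.7%), or 1158 and 548 without N3 and 237 lower without R3. In a fit of all 12 libraries of the series this test called 0 genes, with 1868 at an unadjusted p under 0.05. The 3 cerulein values lay wholly above the 3 saline values in 29.9% of genes and wholly below in 24.9%. A signed value in parentheses after a gene is its log2 fold change, cerulein over saline. Errors of these are approximate standard errors, with 3 libraries in each group. They were derived from the log2 fold change and the F statistic of edgeR's test, not directly from the spread of the libraries. The strand setting of the counting is not given in the sources used here, so reads of genes that overlap another gene on the opposite strand cannot be told apart. Among genes named below these include Atf5, Brd2, Copa, Ctsb, Dbp, Dusp1, Fosl1, Psph, Rbpjl, Shmt2, Sqstm1, Vcl and Zyx.

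Rises and falls were not spread evenly over the range of levels. Of the 5127 genes with a mean of 10 to 100 CPM, 38.7% rose and 17.6% fell. Among the 388 genes at 100 to 1000 CPM 43.6% rose and 17% fell. The 53 genes at 1000 CPM or more went the other way, with 17% higher and 41.5% lower. Below 1 CPM 10.8% of 1486 genes rose and 7.81% fell. These shares mix the size of changes with the counts available to detect them, since a low gene needs a larger change to pass.

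**Figure D2:**
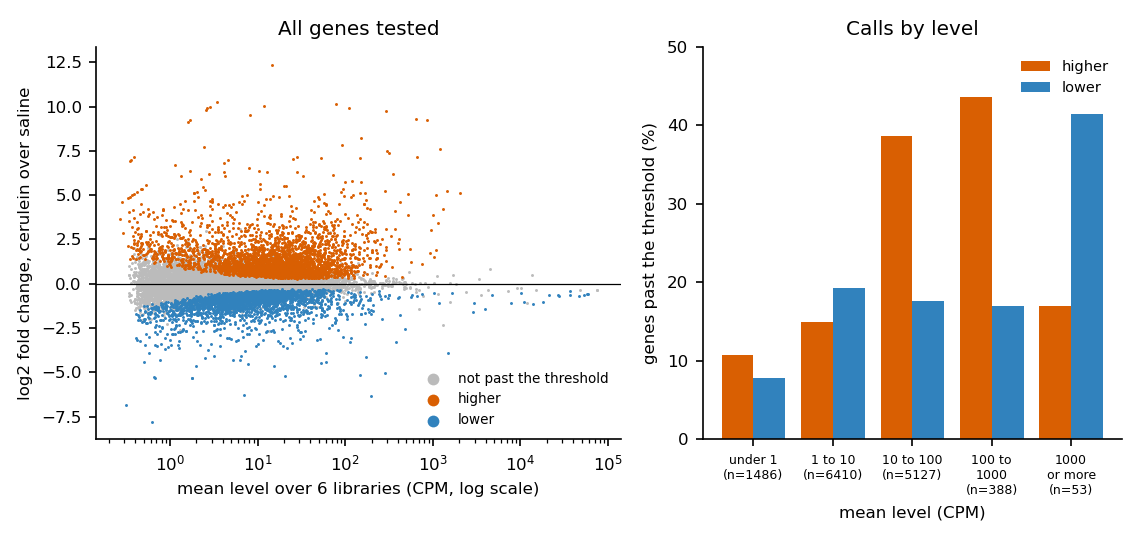
Left, log2 fold change against mean level (CPM, log scale) for the 13464 genes tested, coloured by edgeR's call. Right, percentage of genes that rose or fell in 5 ranges of mean level, with the number of genes in each: rises outnumber falls from 10 to 1000 CPM, and falls outnumber rises at 1000 CPM or more.

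Whole classes of genes shifted their share of the library. Digestive enzyme genes took 66.4%, 67.6% and 64.5% of all counts in saline and 54.3%, 56% and 54.8% in cerulein. Actin cytoskeleton and focal adhesion genes took 0.121%, 0.117% and 0.148% in saline and 1.14%, 0.954% and 1.01% in cerulein, an 8.04-fold ratio of means. Simple epithelial keratins and ductal genes went from a mean of 0.0925% ± 0.0104 to 0.923% ± 0.108 (SD, n = 3 per group), a 9.98-fold ratio. Smaller classes moved the same way. Heat shock proteins went from 0.129% to 0.441%, bZIP transcription factors from 0.108% to 0.397%, ribosome biogenesis genes from 0.0763% to 0.195%, amino acid transporters from 0.0954% to 0.216% and cytosolic aminoacyl-tRNA synthetases from 0.0926% to 0.204%. Cytosolic ribosomal proteins took 1.87% in saline and 2.25% in cerulein. In each of these classes the groups did not overlap, and the two-sided exact permutation test gave p = 0.1, the smallest that 3 against 3 libraries allow (0.14 adjusted over 14 classes). For ribosomal proteins the difference was 0.378 percentage points, and with the 10 most abundant genes left out of the total it was 0.0473 (p = 0.9, exact permutation test). Shares of ER folding genes (0.487% and 0.466%), ER translocon genes (0.181% and 0.184%), mitochondrially encoded mRNAs (0.711% and 0.61%) and long noncoding genes (0.425% and 0.365%) overlapped between the groups, with p from 0.4 to 0.7. With the 10 most abundant genes left out of the total, the differences of ER folding genes (-0.214 percentage points), ER translocon genes (-0.058) and mitochondrially encoded mRNAs (-0.441) had p = 0.1 in the same exact permutation test, and that of long noncoding genes (-0.262) p = 0.2. The mitochondrial difference went from -0.101 to -0.0361 without O3 and to -0.168 without N3, and the long noncoding one from -0.0607 to -0.00712 without R3 and to -0.119 without W1.

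**Figure D3:**
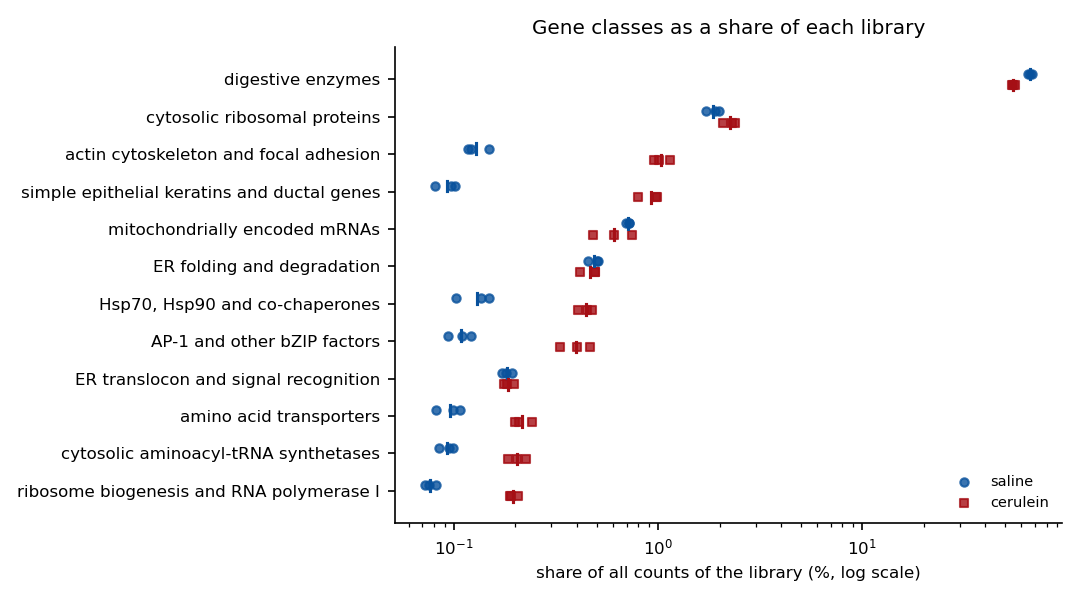
Share of all counts of a library taken by 12 gene classes (%, log scale), with each library as a point and the mean of each group as a short vertical line. Digestive enzymes fall from a mean of 66.2% to 55%, while actin cytoskeleton genes and keratins rise from below to above the share of mitochondrially encoded mRNAs.

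Per unit of transcript length the upper ranks changed hands. Of the 100 genes with the highest mean TPM (counts per exonic length, scaled to the same total in each library), 76 were the same in both groups. Krt8, an intermediate filament keratin of simple epithelia, went from rank 240 (82.5 TPM) to rank 27 (3770 TPM). The 24 genes that entered included its partner Krt18 (rank 155 to 30), the actin-severing protein Dstn (373 to 41), and the actins Actg1 (439 to 42) and Actb (197 to 48). Others were the glutathione-degrading enzyme Chac1 (2304 to 47), Rcan1 (3268 to 50), Atf3 (6711 to 84), Gclc (1565 to 86) and Hspa8 (138 to 69). The mitochondrial ribosomal RNAs mt-Rnr1 (171 to 60) and mt-Rnr2 (273 to 65) entered too. Of the genes that left, the lectin Reg3g went furthest, from rank 92 (257 TPM) to rank 5980 (4.02 TPM), though its saline level ran from 51.1 to 2114 CPM and without a filter on low counts its fall did not pass (adjusted p = 0.0529). Several ribosomal protein genes also left the first 100 while their TPM rose slightly. Ranks of trypsinogen genes are not given, since near-identical copies share reads.

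The receptor for cerulein itself was among the genes with the largest falls. Of the list of secretagogue receptors and calcium signalling, 6 of the 28 members tested rose, 10 fell and 12 did not pass the threshold, with a median log2 fold change of -0.07. The rises are 21.4% of the list, near the 24.4% of all genes tested, and the falls 35.7% against 17.4%. Falls numbered 6 without R3. Cckar, the cholecystokinin receptor of acinar cells and the target of cerulein (ENSMUSG00000029193, chr5:53697776-53707705, minus strand), stood at 344, 319 and 330 CPM with saline and 18.2, 17.4 and 20.1 CPM with cerulein. The groups were far apart and each was tight, with a log2 fold change of -4.15 ± 0.13 (adjusted p = 2.07e-05). Gna14, a Gq-class alpha subunit, fell (-2.87, from a mean of 6.62 to 0.91 CPM), as did Vipr1, a receptor for vasoactive intestinal peptide (-1.57, from a mean of 14.8 to 4.99 CPM). The muscarinic receptor Chrm3, through which acetylcholine drives secretion, rose by 0.88, from a mean of 9.2 to 16.9 CPM. Calcium handling genes moved in both directions. Trpv6, a plasma membrane calcium entry channel, stood at 1.29, 0.846 and 0.32 CPM with saline and 24.2, 19.5 and 14.6 CPM with cerulein, a log2 fold change of 4.64 ± 0.45 (adjusted p = 0.000347). The pumps that remove calcium from the cytosol also rose, Atp2a2 of the ER by 1.46 and Atp2b1 of the plasma membrane by 1.26. Of the ER calcium release channels Itpr2 fell (-1.41, from a mean of 28.6 to 10.7 CPM), while Itpr1 (-0.04) and Itpr3 (0.18) did not pass.

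Some granule and enzyme genes fell, many of them from very high levels. Of the zymogen granule and exocytosis list, 2 of the 22 members tested rose, 8 fell and 12 did not pass the threshold, with a median log2 fold change of -0.24. Without O1 there were 5 falls. The granule proteins Zg16 (-1.02) and Dmbt1 (-1.07) fell. Stx3, a SNARE protein, went the other way, at 9.72, 9.31 and 7.6 CPM with saline and 49.8, 57.8 and 37.2 CPM with cerulein. Among digestive enzymes and their inhibitors, 2 of the 28 members tested rose, 15 fell and 11 did not pass the threshold, with a median log2 fold change of -0.60. For falls the count became 8 without O1. Carboxypeptidase Cpa1 stood at 63600, 69100 and 60800 CPM with saline and 41100, 44300 and 39700 CPM with cerulein, a log2 fold change of -0.63 ± 0.12 (adjusted p = 0.00477). Its share of all counts, which the TMM factors do not enter, fell less, from 5.4%, 6.38% and 5.86% to 4.57%, 4.52% and 4.63%. The colipase gene Clps fell (-1.05, from a mean of 24100 to 11700 CPM), as did the pancreatic ribonuclease Rnase1 (-1.15, from a mean of 19200 to 8630 CPM). The chymotrypsinogen Ctrc, whose locus overlaps Cela2a on the same strand, had the largest fall of the list (-1.73, from a mean of 235 to 70.7 CPM). The elastase gene Cela1, the third most abundant gene of the libraries, fell less (-0.59) and did not pass without O1 (-0.64, adjusted p = 0.0726) or in a fit of all 12 libraries (adjusted p = 0.113), and the more abundant Ctrb1 (-0.38) and Pnlip (-0.35) did not pass. The trypsin inhibitor Spink1 stood at 1260, 849 and 917 CPM with saline and 1100, 1310 and 752 CPM with cerulein, with overlapping groups (log2 fold change 0.06). Within this list the exceptions that rose were Prss1 (4.26, from a mean of 2.75 to 52.4 CPM) and Prss3 (2.28, from a mean of 137 to 665 CPM). Both are of the trypsinogen family, whose near-identical copies can exchange reads. Gene models without a name can lie outside the list and are then not counted in it. Of these, Gm2663 went from a mean of 4.75 to 3730 TPM and 1810009J06Rik from 3.25 to 2690 TPM.

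Transcription factors of the acinar cell fell or did not pass. Of this list 0 of 14 rose and 7 fell (median log2 fold change -0.80). DESeq2 called 0 rises and limma-voom 0, and edgeR had 1 at an unadjusted p under 0.05. The count of rises moved to 3 without N3. Bhlha15 (Mist1), which drives secretory maturation (ENSMUSG00000052271, chr5:144190286-144194441, plus strand), stood at 215, 335 and 217 CPM with saline and 99.7, 85.8 and 59 CPM with cerulein. Rbpjl, a subunit of the acinar PTF1 complex, stood at 346, 272 and 211 CPM with saline and 92.6, 105 and 80 CPM with cerulein. Neither gene had overlapping groups, and the log2 fold changes were -1.65 ± 0.26 (adjusted p = 0.00219) and -1.58 ± 0.21 (adjusted p = 0.001). Hnf4a (-1.42 ± 0.13, adjusted p = 0.000196) and Nr5a2 (-1.33 ± 0.14, adjusted p = 0.000399), nuclear receptors that act on enzyme genes, fell too. Ptf1a itself fell (-0.84, from a mean of 44.5 to 24.9 CPM), but not without O1 (-0.88, adjusted p = 0.0515). Xbp1, a factor of secretory cells and the unfolded protein response, fell as well (-0.77, from a mean of 520 to 306 CPM). In a fit of all 12 libraries neither Ptf1a (adjusted p = 0.107) nor Xbp1 (adjusted p = 0.068) passed.

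Most bZIP transcription factors rose. AP-1 and related bZIP proteins are rapidly induced factors that bind DNA as dimers and link MAP kinase, calcium and stress signals to transcription. In this list, 22 of the 31 members tested rose, 1 fell and 8 did not pass the threshold, with a median log2 fold change of 1.95. Fosl1, an AP-1 partner, stood at 1.29, 0.212 and 1.36 CPM with saline and 66.4, 78.4 and 48.4 CPM with cerulein. Nfil3, a bZIP repressor, stood at 5.21, 1.43 and 4.24 CPM with saline and 237, 194 and 153 CPM with cerulein. All 3 cerulein libraries were far above all saline libraries for both, with log2 fold changes of 6.06 ± 0.53 (adjusted p = 0.000303) and 5.75 ± 0.50 (adjusted p = 0.000285). Factors of the amino acid and unfolded protein responses were already abundant in saline and rose less, Atf4 by 1.88, from a mean of 124 to 456 CPM and Atf5 by 1.92, from a mean of 68.8 to 261 CPM. Ddit3 (Chop), a downstream factor of that response, did not pass (0.90, from a mean of 2.54 to 4.68 CPM). Nor did the ER-bound sensor Atf6 (0.20) or Creb1 (-0.01), whose product is regulated by phosphorylation.

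Zinc finger factors and the brakes on MAP kinase signalling rose with them. Of Kruppel-like and Egr factors 13 of 18 rose and 2 fell (median log2 fold change 1.58). Klf6 stood at 38.5, 37 and 46.9 CPM with saline and 786, 699 and 630 CPM with cerulein, and its log2 fold change was 4.11 ± 0.17 (adjusted p = 2.07e-05). Klf15, a metabolic regulator induced by glucocorticoids and fasting, fell, at 79.3, 130 and 92.4 CPM with saline and 5.25, 3.79 and 4.24 CPM with cerulein. Every saline library was far above every cerulein library for Klf15. Klf12 fell too (-1.42, from a mean of 0.919 to 0.34 CPM), but did not pass without W1, K5, R3 or O1 (adjusted p from 0.0545 to 0.0729). Of MAP kinase phosphatases and Sprouty proteins, which are feedback inhibitors of the pathway, 15 of 18 rose and 1 fell (median log2 fold change 1.53). Dusp5, a nuclear ERK phosphatase, stood at 2.57, 1.06 and 2.4 CPM with saline and 151, 161 and 120 CPM with cerulein, and Dusp1 at 5.6, 7.56 and 9.12 CPM with saline and 236, 226 and 212 CPM with cerulein. Dusp6, a cytoplasmic ERK phosphatase, did not pass (0.61). In the mRNA decay list 10 of 22 rose (45.5%) and 4 fell (18.2%, against 17.4% of all genes tested), with a median log2 fold change of 0.48. Its rises included those of inducible decay factors, Zfp36 (2.29), Btg1 (2.39), Btg2 (1.96) and the ribonuclease Zc3h12a (1.89). Scaffold and exonuclease genes of the constitutive machinery did not pass (Cnot1 -0.10, Xrn1 -0.11), and Tob1, an antiproliferative adaptor of deadenylation, fell (-2.03, from a mean of 126 to 30.7 CPM).

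Promoters of some induced genes hold the letters that these factors are known to bind. Sequences from RefSeq (GRCm38.p6) were matched by symbol for 10048 of the genes tested, with 12902 start sites, and the 250 bases upstream of each were searched on both strands. The AP-1 site (TGANTCA) was in 7.77% of the 1029 promoters of genes that rose past 2-fold and in 4.6% of all promoters. The C/EBP-ATF composite site (TGATGNAA) was in 3.5% against 2.05%, the CArG box of serum response factor in 2.43% against 1.17%, and the cyclic AMP response element (TGACGTCA) in 3.4% against 2.52%. Some genes have several start sites whose windows overlap. Counted once per gene, the CArG box was in 20 of 764 risen genes (2.62%) and 141 of all 10048 (1.4%), and the AP-1 site in 9.82% against 5.59%. Of the 257 genes that fell past 2-fold, 9 held the C/EBP-ATF site (3.5%, against 2.48% of all) and 5 the CArG box (1.95%). Shares of these 2 sites were thus above those of all genes in fallen genes too. The AP-1 site was in 5.45% of fallen genes and the cyclic AMP response element in 1.56%. By promoter, shares were close for the heat shock element (GAANNTTC, 4.66% against 4.98%) and the Egr site (GCGTGGGCG, 0.875% against 1.02%). The E-box (CACGTG) was in 9.43% against 8.12% by promoter and in 12.3% against 9.86% by gene. For the cyclic AMP response element the shares by gene were 4.32% against 3.04%. The D-box (TTATGTAA) was in 2 risen promoters (0.194%) and 0.465% of all. A match is a description of the letters and not evidence of binding. Below are 4 such windows, 5′ to 3′ on the gene's strand and with the site in capitals. Each is from a member of the lists with a large rise that holds that site. Not every chromosome was considered in this choice, so a member with a larger rise may hold the site too. They show how close to the start each site lies in genes whose values are given here: a cyclic AMP response element in Dusp1 (chr17:26508473-26508722, minus strand), an AP-1 site in Lif (chr11:4257318-4257567, plus strand), a C/EBP-ATF site in Atf3 (chr1:191183334-191183583, minus strand) and CArG boxes in Dusp5 (chr19:53528895-53529144, plus strand).
Dusp1: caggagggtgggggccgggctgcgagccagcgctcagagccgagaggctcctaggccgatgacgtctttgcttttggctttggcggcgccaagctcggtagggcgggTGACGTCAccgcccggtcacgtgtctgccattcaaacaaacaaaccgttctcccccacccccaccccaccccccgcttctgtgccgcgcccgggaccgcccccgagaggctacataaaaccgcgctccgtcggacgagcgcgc
Lif: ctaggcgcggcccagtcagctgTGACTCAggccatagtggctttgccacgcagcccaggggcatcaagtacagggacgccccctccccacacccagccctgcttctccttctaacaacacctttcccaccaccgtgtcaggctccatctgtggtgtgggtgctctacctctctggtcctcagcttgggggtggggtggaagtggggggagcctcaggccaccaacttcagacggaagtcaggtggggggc
Atf3: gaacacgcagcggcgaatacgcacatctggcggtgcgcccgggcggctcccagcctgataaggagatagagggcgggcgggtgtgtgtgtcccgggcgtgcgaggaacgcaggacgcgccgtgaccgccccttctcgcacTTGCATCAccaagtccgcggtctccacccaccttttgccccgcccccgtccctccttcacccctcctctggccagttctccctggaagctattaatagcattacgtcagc
Dusp5: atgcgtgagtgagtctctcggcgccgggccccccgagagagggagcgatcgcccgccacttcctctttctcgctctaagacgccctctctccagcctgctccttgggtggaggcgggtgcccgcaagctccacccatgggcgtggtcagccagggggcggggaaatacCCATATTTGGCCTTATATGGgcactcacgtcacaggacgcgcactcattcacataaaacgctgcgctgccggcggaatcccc
Relative to the start of transcription the site begins at -143 in Dusp1, -228 in Lif and -110 in Atf3, and the first of the 2 boxes in Dusp5 at -82. Lif, a cytokine of the interleukin 6 family, stood at 1.03, 0.423 and 0.6 CPM with saline and 564, 610 and 582 CPM with cerulein, and Atf3 at 3.22, 1.16 and 5.36 CPM with saline and 772, 595 and 428 CPM with cerulein. Dusp1, Dusp5, Lif and Atf3 were all low in every saline library, and no cerulein library came near a saline one.

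Many genes that supply amino acids and charge transfer RNAs rose, while others of the same lists fell. They include many known targets of ATF4. Of amino acid transporters 10 of 22 rose (45.5%) and 5 fell (22.7%), with a median log2 fold change of 0.26. Over all genes tested the shares were 24.4% and 17.4%. The number of falls was 3 without R3. The cystine importer Slc7a11 stood at 3.02, 1.9 and 4.64 CPM with saline and 118, 84.6 and 82.6 CPM with cerulein, and the arginine and lysine transporter Slc7a3 at 4.5, 7.3 and 6.28 CPM with saline and 86.9, 91.2 and 47.4 CPM with cerulein. Slc3a2, the heavy chain of several amino acid exchangers including the cystine importer, rose by 2.07, from a mean of 111 to 468 CPM. The light chain Slc7a8 fell, at 185, 249 and 177 CPM with saline and 22.2, 18.7 and 21.1 CPM with cerulein. Among light chains that pair with it, Slc7a11 (4.88 ± 0.35, adjusted p = 0.00012) and Slc7a5 (1.42 ± 0.23, adjusted p = 0.00259) rose and Slc7a8 (-3.30 ± 0.18, adjusted p = 3.96e-05) fell. Cytosolic aminoacyl-tRNA synthetases rose in 13 of 20 cases and none fell (median 0.69), led by Nars (1.81 ± 0.15, adjusted p = 0.000133) and Gars (1.70 ± 0.15, adjusted p = 0.000186). The falls numbered 1 at an unadjusted p under 0.05 in edgeR, 1 in DESeq2 and 0 in limma-voom, with 1 called without K5. Nars stood at 89.4, 91.7 and 89 CPM with saline and 345, 341 and 262 CPM with cerulein. Wars, the tryptophan enzyme, was the lowest of the 20 (-0.99, from a mean of 131 to 66.3 CPM) and did not pass. The mitochondrial synthetases, encoded by separate genes, were counted apart: 1 of 17 rose and 7 fell (median log2 fold change -0.41). Falls numbered 4 without K5 or R3 or O1 or O3.

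Serine, glutathione and polyamine lists each held genes that rose and genes that fell. In that order 47.4%, 37% and 50% of members rose, against 24.4% of all genes tested. The shares that fell were 26.3%, 25.9% and 27.8%, against 17.4%. In serine, glycine and folate metabolism 9 of 19 rose and 5 fell (median log2 fold change 0.95). Without W1 or R3 there were 3 falls. Enzymes of serine synthesis rose, Psat1 (2.38, from a mean of 25.1 to 130 CPM) and Psph (2.22, from a mean of 2.21 to 10.3 CPM), with the mitochondrial folate enzymes Shmt2 (1.89) and Mthfd1l (1.88). Cytosolic Mthfd1 (-0.96) and the homocysteine-using Cbs (-0.86) fell. In the glutathione and thioredoxin list 10 of 27 rose and 7 fell (median log2 fold change 0.12). For falls the count became 4 without W1. Gclc, the catalytic subunit of the enzyme that limits glutathione synthesis, stood at 38.2, 24.7 and 29.6 CPM with saline and 1040, 1180 and 844 CPM with cerulein. Its modifier subunit Gclm moved the other way, at 19.4, 16.6 and 20.4 CPM with saline and 12.1, 12 and 9.78 CPM with cerulein. Neither gene had overlapping groups, and the log2 fold changes were 5.05 ± 0.24 (adjusted p = 2.96e-05) and -0.73 ± 0.14 (adjusted p = 0.00556). In a fit of all 12 libraries Gclm did not pass (adjusted p = 0.0526). Chac1, which breaks glutathione down, stood at 11, 7.99 and 8.8 CPM with saline and 1860, 1370 and 738 CPM with cerulein, and its relative Chac2 fell (-2.24, from a mean of 12.1 to 2.56 CPM). In polyamine and proline metabolism 9 of 18 rose and 5 fell (median log2 fold change 0.25). Sat1, which starts polyamine breakdown, stood at 54, 33.7 and 48.4 CPM with saline and 326, 402 and 173 CPM with cerulein, and Odc1, which starts polyamine synthesis, rose by 1.47, from a mean of 84.5 to 235 CPM. Azin1, a protein that protects the Odc1 product from degradation, fell (-1.73, from a mean of 138 to 41.7 CPM). Proline synthesis genes rose (Aldh18a1 1.34, Pycr1 1.12), and Prodh, which oxidises proline, fell, at 49, 54.2 and 54.1 CPM with saline and 8.92, 7.64 and 6.85 CPM with cerulein.

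Genes of protein folding in the ER fell more often than they rose. Of ER folding and degradation genes 5 of 30 rose and 13 fell (median log2 fold change -0.54). Sel1l, the scaffold of the ligase complex that clears misfolded ER proteins (ENSMUSG00000020964, chr12:91806043-91849157, minus strand), stood at 677, 764 and 621 CPM with saline and 73.2, 54.5 and 83.8 CPM with cerulein, a log2 fold change of -3.29 ± 0.20 (adjusted p = 5.63e-05). The chaperone Hyou1 (-1.47, from a mean of 137 to 49.5 CPM), the ER protein Sdf2l1 (-1.67, from a mean of 32.6 to 10.2 CPM) and Dnajb11 (-1.30) fell too. Hspa5 (BiP), the main ER Hsp70, rose instead, at 510, 454 and 476 CPM with saline and 1150, 918 and 1050 CPM with cerulein. The stress sensor Ern1 (1.15) and the oxidase Ero1l (1.86) rose, but Ero1lb, the pancreatic form of that oxidase, fell (-0.91). Without N3 the ER list had 5 higher and 19 lower. Translocon and signal recognition genes mostly did not pass, since 2 of 29 rose and 7 fell (median log2 fold change -0.18). These are 6.9% and 24.1% of the list, against 24.4% and 17.4% of all genes tested. The largest falls were those of Tram1 (-1.44, from a mean of 126 to 46.5 CPM) and Sec62 (-1.01, from a mean of 151 to 75.3 CPM). The count of falls moved to 4 without W1 or R3 or O1. Ddost, a subunit of the oligosaccharyl transferase, was among the abundant genes with the narrowest interval around no change, at 45.2, 42 and 48.4 CPM with saline and 45, 46.1 and 44.9 CPM with cerulein. In ER to Golgi transport 5 of 31 rose (16.1%) and 12 fell (38.7%), with a median log2 fold change of -0.18. The COPII cargo adaptors Sec24a (1.20) and Sec24b (0.99) rose, and the scaffold Sec16a (-0.89) and the Golgi stacking protein Gorasp2 (-0.99) fell.

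Most cytosolic chaperone genes rose. Of Hsp70, Hsp90 and their co-chaperones 19 of 27 rose and 1 fell (median log2 fold change 0.93). Hspa4l, a nucleotide exchange factor for Hsp70, stood at 2.64, 4.34 and 3.64 CPM with saline and 97.1, 101 and 91.7 CPM with cerulein, a log2 fold change of 4.76 ± 0.20 (adjusted p = 2.07e-05). Hsp90aa1, the inducible Hsp90, stood at 57.2, 75.7 and 76.8 CPM with saline and 289, 280 and 293 CPM with cerulein. The 3 cerulein libraries were within a narrow range for both genes. Inducible Hsp70 genes rose from near 0, Hspa1a (6.29, from a mean of 0.311 to 25.2 CPM) and Hspa1b (4.81, from a mean of 0.863 to 23.7 CPM), though these near-identical copies may exchange reads. The mitochondrial chaperones Hspa9 (1.43) and Hspd1 (0.98) rose too. In the cytosolic chaperonin list, which folds actin and tubulin, 9 of 14 rose and 1 fell (median log2 fold change 0.46). The number of rises was 5 without K5 or R3 and 4 without O1 or O3. The proteasome was uneven. Of its 20S core 1 of 14 rose and 1 fell (median log2 fold change -0.03), and of its 19S regulator 9 of 20 rose and 0 fell (median log2 fold change 0.30). At an unadjusted p under 0.05 edgeR had 0 falls in this list, DESeq2 called 0 and limma-voom 0. Rises numbered 5 without K5 or O3 and 4 without O1. Psmd8 led the regulator genes, at 39.2, 33.8 and 41.5 CPM with saline and 131, 158 and 116 CPM with cerulein.

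Autophagy and lysosome lists held genes that rose and genes that fell. Of the autophagy list 9 of 30 rose (30%) and 8 fell (26.7%), with a median log2 fold change of -0.16. Vmp1, which acts in autophagosome formation and shares its locus with the microRNA gene Mir21a, stood at 35.5, 22.1 and 37.4 CPM with saline and 147, 187 and 137 CPM with cerulein, and the cargo receptor Sqstm1 rose by 1.75, from a mean of 104 to 351 CPM. The initiating kinase Ulk1 fell, at 43.4, 48.8 and 48.5 CPM with saline and 12.3, 12.2 and 14.9 CPM with cerulein. Members of the same small families diverged, since Map1lc3a (1.69) and Gabarapl1 (1.13) rose while Map1lc3b (-0.91) and Gabarap (-0.67) fell. In the lysosome list 8 of 32 rose and 6 fell (median log2 fold change 0.14, -0.10 without N3), 25% and 18.8% of the list against 24.4% and 17.4% of all genes tested. Proteases that rose included Ctsb, which can activate trypsinogen (2.27, from a mean of 85.5 to 412 CPM), Ctsl, which can degrade it (1.97, from a mean of 222 to 868 CPM), and Ctsc (2.68, from a mean of 26.3 to 169 CPM). Atp6v1b2, a proton pump subunit, stood at 32.2, 29.1 and 32.1 CPM with saline and 273, 383 and 204 CPM with cerulein, whereas the pump subunits Atp6v0d1 (-0.58) and Atp6v1e1 (-0.76) fell. The membrane proteins Lamp1 (-0.05) and Lamp2 (0.02) did not pass.

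Ribosome assembly genes rose, while of ribosomal protein genes 1 passed. Of ribosome biogenesis and RNA polymerase I genes 26 of 32 rose and 0 fell (median log2 fold change 0.95). DESeq2 called 0 falls and limma-voom 0, and edgeR had 1 at an unadjusted p under 0.05, with 1 called without N3. Nop58, a core protein of box C/D small nucleolar particles, stood at 28.6, 15.3 and 23.9 CPM with saline and 135, 164 and 96.4 CPM with cerulein, and Rrp12 rose by 2.07, from a mean of 8.81 to 37.1 CPM. The abundant nucleolar proteins Ncl (1.03, from a mean of 164 to 334 CPM) and Npm1 (1.04, from a mean of 126 to 260 CPM) rose too. Of 81 cytosolic ribosomal protein genes 0 rose and 1 fell (median log2 fold change -0.00). The rises numbered 0 at an unadjusted p under 0.05 in edgeR, 0 in DESeq2 and 0 in limma-voom, with 1 called without N3. Among translation factors 18 of 31 rose and 1 fell (median log2 fold change 0.49). Initiation factors rose (Eif1a 1.85, Eif5 1.61, Eif4e 1.54, Eif4a1 1.30), and the elongation factors Eef1a1 (0.28), Eef2 (0.05) and Eef1g (0.15) did not pass. Subunits of the exchange factor eIF2B split, with Eif2b3 higher (2.28, from a mean of 5.83 to 28.4 CPM) and Eif2b1 lower (-1.57, from a mean of 22.8 to 7.65 CPM). In the spliceosome list 13 of 31 rose and 4 fell (median log2 fold change 0.25). Without O1 there were 8 rises. Hnrnpu rose by 1.48, from a mean of 120 to 335 CPM, while the SR protein Srsf6 (-1.40, from a mean of 265 to 100 CPM) and the SR kinases Clk1 (-0.72) and Clk4 (-0.84) fell. Of nuclear noncoding and snoRNA host RNAs 10 of 19 rose and 0 fell (median log2 fold change 0.83). At an unadjusted p under 0.05 edgeR had 0 falls in this list, DESeq2 called 0 and limma-voom 0. The nuclear RNAs Malat1 (0.24) and Neat1 (-0.33) did not pass.

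Among the 45 lists, that of the actin cytoskeleton had the largest share of members that rose. Of actin cytoskeleton and focal adhesion genes, 27 of the 32 members tested rose, 2 fell and 3 did not pass the threshold, with a median log2 fold change of 1.65. Actg1, cytoplasmic gamma-actin (ENSMUSG00000062825, chr11:120345690-120348542, minus strand), stood at 70.9, 58.6 and 91.3 CPM with saline and 3300, 2770 and 2350 CPM with cerulein, and Actb at 199, 161 and 230 CPM with saline and 2300, 1880 and 2100 CPM with cerulein. For both actin genes every cerulein library was far above every saline library. Dstn, which severs filaments, stood at 64.4, 63.1 and 66.7 CPM with saline and 2340, 2260 and 1650 CPM with cerulein. The focal adhesion genes Zyx (3.47 ± 0.21, adjusted p = 5.51e-05) and Vcl (2.88 ± 0.21, adjusted p = 9.38e-05), the crosslinkers Actn1 (2.77) and Actn4 (2.90) and the motor Myh9 (2.52) rose with them. The smooth muscle actin Acta2 did not pass (-0.37). Of tubulin and microtubule genes 10 of 18 rose and 2 fell (median log2 fold change 0.91). The largest rises were those of Tuba8 (3.56, from a mean of 0.457 to 5.64 CPM), Tubb6 (3.24, from a mean of 5.57 to 52.8 CPM) and Tuba1c (3.11, from a mean of 12 to 104 CPM), and the neuronal isotypes Tubb3 (0.67) and Tubb2b (0.61) did not pass.

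Epithelial keratins and some ductal genes rose together. Of this list 15 of 22 rose and 4 fell (median log2 fold change 1.32). For rises the count became 9 without O1. The count of falls moved to 2 without R3 or O1. Krt8 (ENSMUSG00000049382, chr15:101996698-102004482, minus strand) stood at 128, 94.1 and 117 CPM with saline and 4280, 4360 and 3280 CPM with cerulein, and Krt18 at 161, 110 and 131 CPM with saline and 2660, 2710 and 2060 CPM with cerulein. The ductal keratin Krt19 stood at 10.2, 12.5 and 9.84 CPM with saline and 95, 113 and 98.8 CPM with cerulein, with a log2 fold change of 3.23 ± 0.15 (adjusted p = 2.51e-05). Sox9, a factor of ductal and progenitor cells, rose by 3.49, from a mean of 7.29 to 82.5 CPM. All 8 genes of the keratin family (Krt) with enough counts rose. Of other genes of the duct Muc1 (-0.94 ± 0.17, adjusted p = 0.00412) and Cldn10 (-1.46 ± 0.13, adjusted p = 0.0002) fell. The 10 duct markers summed to 224 to 286 CPM in saline and 327 to 483 CPM in cerulein, and 9 of them, Krt19 and Sox9 included, are also in the list of keratins and ductal genes. Of annexins and S100 proteins 9 of 15 rose and 1 fell (median log2 fold change 1.22), among them Anxa2 (1.91, from a mean of 24.3 to 91.6 CPM) and S100a11 (2.65, from a mean of 13.3 to 83 CPM). Genes of the EGFR family included some of the largest rises. Hbegf, a membrane-anchored EGFR ligand, stood at 2.51, 1.22 and 2.64 CPM with saline and 305, 287 and 293 CPM with cerulein, and the related ligand Btc at 0.45, 0.317 and 0.36 CPM with saline and 39.4, 78.2 and 31.8 CPM with cerulein. Their receptor Egfr stood at 13.2, 12.8 and 15.6 CPM with saline and 134, 136 and 122 CPM with cerulein. The ligand Tgfa fell (-1.23), and the list as a whole, with targets of YAP and TAZ, had 8 rises and 2 falls among 19.

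**Figure D4:**
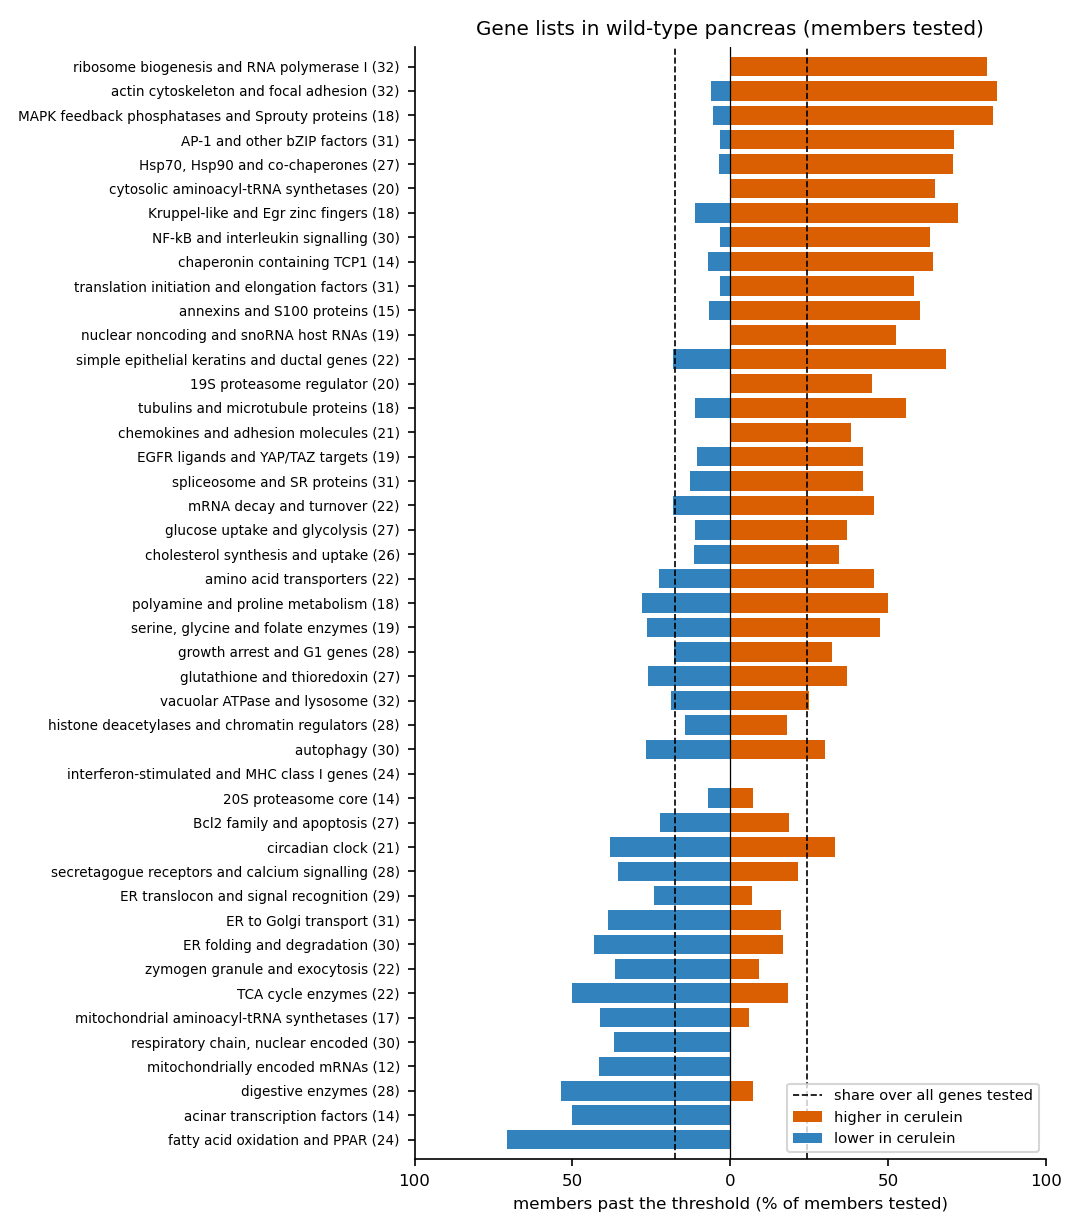
Percentage of the tested members of each of 45 gene lists that rose (right) or fell (left) in cerulein, with the number tested in parentheses; dashed lines mark the shares over all genes tested, 24.4% and 17.4%. Ribosome biogenesis, actin, MAP kinase feedback and bZIP lists lie far to the right of the background, and fatty acid oxidation, acinar transcription factors and digestive enzymes far to the left.

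Genes of fatty acid oxidation fell or did not pass, and each list of mitochondrial genes given here had more falls than rises. Of fatty acid oxidation and PPAR genes, 0 of the 24 members tested rose, 17 fell and 7 did not pass the threshold, with a median log2 fold change of -0.94. DESeq2 called 0 rises and limma-voom 0, and edgeR had 0 at an unadjusted p under 0.05. Cpt1a, which admits fatty acids into mitochondria, stood at 65.1, 93.8 and 79.2 CPM with saline and 29.2, 26.2 and 30 CPM with cerulein, a log2 fold change of -1.48 ± 0.16 (adjusted p = 0.000387). No cerulein library reached a saline library. Of nuclear respiratory chain genes 0 of 30 rose and 11 fell (median log2 fold change -0.40). The rises numbered 0 at an unadjusted p under 0.05 in edgeR, 0 in DESeq2 and 0 in limma-voom. The number of falls was 5 without W1 or O1 and 4 without R3. The falls were small, the largest being -0.70, and of 37 complex I (Nduf) genes 24 fell (median -0.55). Falls numbered 13 without W1 or R3 and 12 without O1. The ATP synthase genes tested by name did not pass (Atp5a1 0.03, Atp5b -0.01). Mitochondrially encoded mRNAs, read from the organelle's own genome, had 0 rises and 5 falls among 12. At an unadjusted p under 0.05 edgeR had 0 rises in this list, DESeq2 called 0 and limma-voom 0. Without W1 or K5 there was 1 fall, with 0 without O1 and 3 without O3. None of the 5 (mt-Atp6, mt-Co2, mt-Cytb, mt-Nd1 and mt-Nd4) passed in a fit of all 12 libraries (adjusted p from 0.0663 to 0.0978). The ribosomal RNAs of the organelle, which are outside this list, had a higher mean TPM with cerulein. For mt-Rnr1 it was 120 with saline and 881 with cerulein, and for mt-Rnr2 71.9 and 785. These are group means given without a test, in another measure than the log2 fold changes of the mRNAs. The part of library preparation in these ribosomal RNA values was not tested. Of TCA cycle enzymes 4 of 22 rose and 11 fell (median log2 fold change -0.39). For rises the count became 1 without K5 or O1 or O3 and 2 without R3. The count of falls moved to 4 without W1 or R3 or O1 and 5 without K5. Of 77 mitochondrial ribosomal protein genes 2 rose and 22 fell (median log2 fold change -0.15). The number of rises was 1 without K5 or R3 or O1 or O3 and 5 without N3. Falls numbered 14 without W1 or R3 or O1.

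Glucose, cholesterol and clock genes were mixed. In glucose uptake and glycolysis 10 of 27 rose and 3 fell (median log2 fold change 0.47, -0.05 without N3). Without N3 there were 8 falls. The basal glucose transporter Slc2a1 stood at 3.6, 4.76 and 5.56 CPM with saline and 34.2, 36.7 and 24.3 CPM with cerulein, and Pfkfb3, which makes an activator of glycolysis, rose by 2.46, from a mean of 16.3 to 89.6 CPM. Of cholesterol synthesis and uptake genes 9 of 26 rose (34.6%) and 3 fell (11.5%), with a median log2 fold change of 0.46. Over all genes tested 24.4% rose and 17.4% fell. For falls the count became 6 without N3. Sqle, which oxidises squalene, rose by 2.01, from a mean of 4.68 to 18.9 CPM, and Lss (-0.82), the next step, fell. In a fit of all 12 libraries Lss did not pass (adjusted p = 0.07). Of circadian clock genes 7 of 21 rose (33.3%) and 8 fell (38.1%), with a median log2 fold change of -0.58. The count of falls moved to 4 without K5, 3 without R3 and 5 without O1 or O3. Output factors of the clock fell, but from saline levels that themselves varied. Dbp stood at 7.14, 47.4 and 34.6 CPM with saline and 1.03, 0.769 and 1.69 CPM with cerulein, and Tef at 18.5, 84.8 and 60.3 CPM with saline and 5.07, 4.85 and 8.63 CPM with cerulein. W1 was the lowest saline library for both genes and still above every cerulein library. Npas2 (4.61, from a mean of 0.232 to 5.84 CPM) and Cry1 (1.99, from a mean of 3.76 to 15 CPM) rose, and Clock did not pass (0.03). The labels give no clock time of sampling.

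Genes of cell survival and growth arrest moved in both directions. Of Bcl2 family and apoptosis genes 5 of 27 rose and 6 fell (median log2 fold change 0.13, -0.50 without N3), 18.5% and 22.2% against 24.4% and 17.4% of all genes tested. The number of rises was 2 without W1 or K5 and 3 without R3. Falls numbered 10 without N3. The antiapoptotic genes Bcl2l1 (2.50, from a mean of 20.5 to 116 CPM) and Mcl1 (1.39, from a mean of 124 to 327 CPM) rose, and Bnip3, a mitochondrial death and mitophagy protein, fell (-2.08, from a mean of 42.5 to 10 CPM). Among growth arrest and G1 genes 9 of 28 rose (32.1%) and 5 fell (17.9%), with a median log2 fold change of 0.07 (-0.10 without N3). Without N3 there were 9 falls. Cdkn1a (p21) stood at 26.8, 13.6 and 17 CPM with saline and 393, 412 and 275 CPM with cerulein. Sesn2, a stress-induced inhibitor of mTORC1, stood at 3.35, 3.49 and 3.28 CPM with saline and 128, 126 and 82 CPM with cerulein, and its relative Sesn1 moved in the opposite direction, at 87.7, 160 and 88.4 CPM with saline and 6.2, 4.32 and 12 CPM with cerulein. Cdkn1b (p27) fell (-1.14), and Ccnd1, the G1 cyclin, did not pass (-0.04).

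Cytokine signalling genes rose in part, from low levels. Of NF-kB and interleukin signalling genes 19 of 30 rose and 1 fell (median log2 fold change 1.23, 0.77 without N3). For rises the count became 10 without R3 and 12 without O1. The TWEAK receptor Tnfrsf12a stood at 6.56, 2.91 and 4.04 CPM with saline and 202, 215 and 138 CPM with cerulein, and Osmr, the oncostatin M receptor, rose by 1.85, from a mean of 15.6 to 56.2 CPM. Tnf (1.61, from a mean of 0.765 to 2.28 CPM) and Il1b (1.46, from a mean of 6.7 to 18.1 CPM), classic mediators of pancreatitis, did not pass. Of chemokines and adhesion molecules 8 of 21 rose and 0 fell (median log2 fold change 1.79, 0.77 without N3). DESeq2 called 0 falls and limma-voom 0, and edgeR had 0 at an unadjusted p under 0.05. Without N3 the list had 6 rises and 2 falls. The count of rises moved to 5 without R3. The monocyte chemokine Ccl2 stood at 15.6, 3.65 and 7.36 CPM with saline and 60.2, 49.7 and 88.1 CPM with cerulein, highest in N3, and without N3 its log2 fold change was 2.64. Macrophage, neutrophil and T lymphocyte markers, given above, were also highest in N3, and their part in these rises was not tested. Of interferon-stimulated and MHC class I genes 0 of 24 rose and 0 fell (median log2 fold change 0.52, 0.12 without N3). The rises numbered 1 at an unadjusted p under 0.05 in edgeR, 0 in DESeq2 and 0 in limma-voom. At an unadjusted p under 0.05 edgeR had 0 falls in this list, DESeq2 called 0 and limma-voom 0, with 1 called without N3. The number of rises was 6 without W1. B2m, the MHC light chain, stood at 96, 64.6 and 67.2 CPM with saline and 58.2, 58.6 and 192 CPM with cerulein. N3 was the highest library for B2m, and without it the log2 fold change was -0.39. Of histone deacetylases and chromatin regulators 5 of 28 rose and 4 fell (median log2 fold change 0.12, -0.16 without N3). These are 17.9% and 14.3% of the list, below the 24.4% and 17.4% of all genes tested. The rises included the bromodomain gene Brd2 (2.45, from a mean of 71.8 to 391 CPM), the demethylase Kdm6b (1.72) and Hdac5 (1.60).

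**Figure D5:**
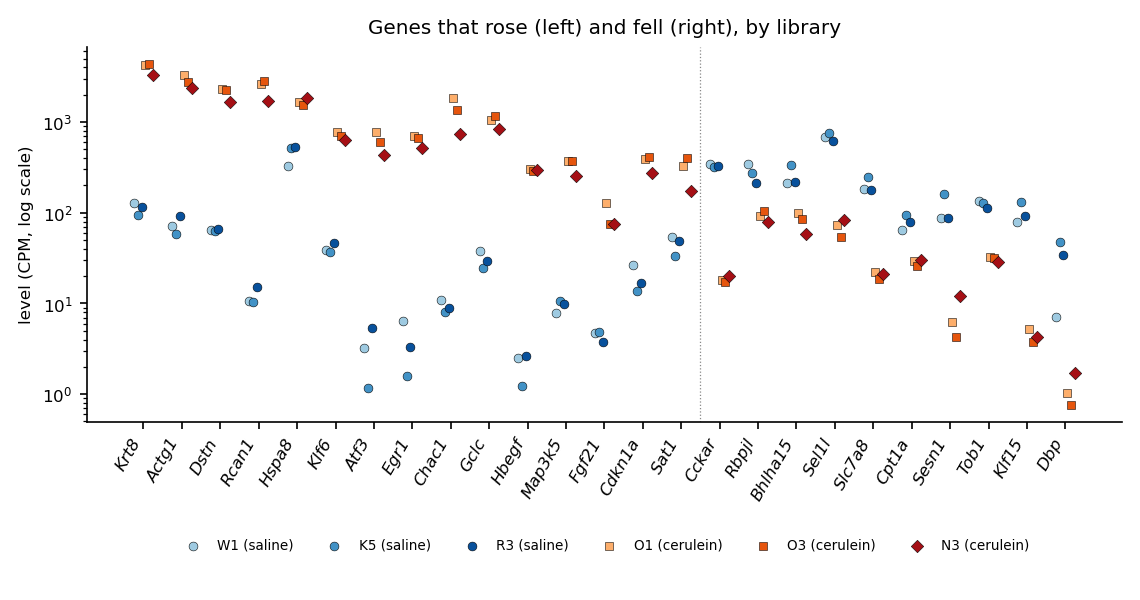
Level of 25 genes in each of the 6 libraries (CPM, log scale; circles, saline; squares and diamonds, cerulein), with 15 that rose on the left of the dotted line and 10 that fell on the right. For every gene drawn the 3 cerulein libraries lie wholly above or wholly below the 3 saline libraries, and N3 lies with O1 and O3.

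Families grouped by symbol alone were counted in the same way, beside the 24.4% that rose and 17.4% that fell over all genes tested. Of 232 solute carriers 58 rose (25%) and 55 fell (23.7%). Falls numbered 35 without W1 and 32 without R3. Of 305 Zfp zinc finger genes 64 rose (21%) and 57 fell (18.7%), so the shares that rose lay near those over all genes in both families. Without K5 there were 35 falls. Phosphatase subunit (Ppp) genes had 26 rises (44.1%) and 7 falls (11.9%) among 59. For rises the count became 17 without O1. The count of falls moved to 12 without N3. DEAD/H-box helicases had 20 rises (40%) and 3 falls (6%) among 50. The number of rises was 13 without O1. Falls numbered 5 without N3. Of detoxification families, glutathione transferases had 1 rise and 9 falls (60%) among 15, and aldehyde and alcohol dehydrogenases 3 rises and 11 falls (57.9%) among 19. Without W1 or K5 there was 1 rise. For falls the count became 7 without W1 or R3. Long noncoding genes had 69 rises (18.1%) and 74 falls (19.4%) among 381 tested. By size, 5514 of the genes that did not pass had log2 fold changes within 0.5 of 0, and of those that passed 72 rose and 11 fell by 5 or more.

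Some abundant genes had changes bounded near 0. For 1045 genes the whole 95% interval of the log2 fold change lay within 0.5 of 0. The intervals were built on the approximate standard errors described above. Among the 1347 genes with the highest level, those with the narrowest interval around 0 were Ddost (0.00), Copa (-0.02), a coat protein of Golgi vesicles, Glyr1 (0.00), Rpl29 (0.02) and D17Wsu92e (-0.03). Copa stood at 120, 128 and 122 CPM with saline and 127, 119 and 119 CPM with cerulein.

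At the other end, 10 genes that passed had 0 counts in every saline library and 2 had 0 in every cerulein library. Those with the most counts in the other group are given as lower bounds, with a floor of 3 counts over the silent group. The retinal protease Prss56 was at least 138-fold higher in cerulein, the epidermal protein gene Ivl at least 112-fold, the photoreceptor gene Prph2 at least 64-fold and the olfactory marker gene Omp at least 14.4-fold. Prph2 did not pass in a fit of all 12 libraries (adjusted p = 0.0606). The microRNA gene Mir217, known for its enrichment in acinar cells, was at least 15.6-fold lower, from 37 counts in saline to 0 in cerulein. These counts come from a total RNA library not made for small RNAs, so they need not follow the mature microRNA. The mature forms (RefSeq, GRCm38.p6, chr11:28763761-28763783 and chr11:28763798-28763820, plus strand) are shown with bases 2 to 8, the seed that pairs with targets, in capitals.
mmu-miR-217-5p: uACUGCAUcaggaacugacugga
mmu-miR-217-3p: cAUCAGUUccuaaugcauugccu
Of 8 microRNA genes with enough counts to test, 4 passed, beside 41.8% of all genes tested.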

How the data were processed

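Whole mouse pancreas was sequenced from 6 wild-type animals, 3 given saline and 3 given cerulein, with modified Trizol extraction and an Illumina stranded total RNA kit, per the labels' protocols. The deposited values are unnormalized read counts per Ensembl gene, 49585 genes in each library. Per the submitters' processing notes HTSeq, DESeq2 and the mm10 build were used, without versions or roles. Aligner, annotation release and strand setting: not given in the sources used here. Symbols and coordinates came from GENCODE M21 on GRCm38, matched by identifier for 49326 genes.

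Groups were taken from the labels. The 6 libraries were fitted alone in R 4.3.3 with edgeR 4.0.16, keeping the 13464 genes passed by filterByExpr, with TMM scaling, a robust quasi-likelihood test and Benjamini-Hochberg adjustment over all of them. The common biological coefficient of variation was 0.274. A second edgeR test was made against a 2-fold change. CPM (counts per 1e6) used TMM-scaled totals, and TPM used exonic lengths. Alternatives were other scalings and filters, DESeq2 1.42.0, limma-voom (limma 3.58.1), a fit of all 12 libraries, and leaving out each library. Tables and figures used Python 3.11.15, pandas 2.3.3, NumPy 2.4.6 and matplotlib 3.10.9. The fits were tested on simulated data in which few genes changed, with as many rises as falls. That setting differs from these data, so it does not bear on the scaling or error rate here.

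The genes described and the 45 pathway lists, 15 marker lists and 62 symbol families were chosen with earlier results of these data known. Genes were named by rule: the 10 largest gains and 10 largest losses in CPM, up to 6 called members of each list with the largest fold change, genes at 0 in 1 group, the extremes and the genes nearest 0 among the 1347 most abundant, and leading markers. Acta2, Actn1, Adipoq, Atf4, Atf5, Atf6, Atp2b1, Atp5a1, Atp5b, Atp6v0d1, B2m, Cbs, Ccnd1, Cdkn1b, Chac2, Chrm3, Cldn10, Clk1, Clk4, Clock, Cnot1, Creb1, Cry1, Ddit3, Dusp6, Eef1a1, Eef1g, Eef2, Ern1, Ero1lb, Gabarap, Gclm, Hspa5, Hspa9, Hspd1, Il1b, Itpr1, Itpr2, Itpr3, Klf12, Lamp1, Lamp2, Lss, Malat1, Map1lc3b, Mthfd1, Ncl, Neat1, Npm1, Osmr, Pycr1, Sec16a, Sec24b, Slc7a5, Spink1, Tnf, Tubb2b, Tubb3, Wars, Xbp1 and Xrn1 were named after their values were seen. Some genes of these lists are counted but not reported by name here.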

Additional observations from a re-analysis of the deposited data

How the results depend on the processing

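Genes higher numbered 2271 to 3444 and genes lower 1558 to 3103 as each library was left out, and genes past 2-fold 692 to 1158 higher and 237 to 548 lower. Genes lower fell to 1558 without R3, and those lower past 2-fold to 237 without R3 and rose to 548 without N3. In the fit of all 12 libraries 2568 genes were higher and 1831 lower, and the test of edgeR against a 2-fold change called 0 higher and 0 lower, with 1868 genes at an unadjusted p under 0.05 and a smallest adjusted p of 0.0715. DESeq2 called 3109 higher and 2416 lower, and limma-voom 3269 and 2401. Of 379 named genes called, 301 kept the call in every setting run and 60 lost it without at least 1 library. Log2 fold changes of genes named by rule that changed sign without N3 ranged, over the libraries left out, as follows: Bank1 (-2.82 to 1.66), C1qb (-0.42 to 0.25), Car3 (-7.04 to 1.12), Cd37 (-1.64 to 1.19), Des (-0.95 to 0.30), Fabp4 (-1.15 to 0.35), Fcrl5 (-3.35 to 2.11), Lpl (-0.78 to 0.86) and Ms4a1 (-3.10 to 1.77). The lower value is in each case the one without N3. Of other genes in the text, Adipoq went from 0.39 to -7.54 without N3, Plin1 from 0.78 to -7.13, Cd79a from 1.13 to -2.74, Cxcl9 from 2.15 to -1.11, Itgal from 1.51 to -0.25 and B2m from 0.44 to -0.39. The difference in share of counts (percentage points) ranged from -0.0397 to 0.00357 for ER folding genes, above 0 without O3, and from -0.00297 to 0.0084 for ER translocon genes, below 0 without O1 and without K5 (-0.00157). With the 10 most abundant genes left out of the total the latter was -0.058. The causes were not tested. No paired analysis was possible because the library codes are not shared between the groups. Genes under 1 CPM passed least often, and what depth hides there is not known.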
